A study of Mus musculus with 6 samples.

Results

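The genes described here are the oxidized LDL receptor gene *Olr1* and 9 further scavenger receptor genes, *Scarb1*, *Scarb2*, *Cd36*, *Msr1*, *Scara3*, *Scara5*, *Scarf2*, *Stab1* and *Lrp1*. They were taken by gene symbol, and 10 of the 55487 genes in the count table carry these symbols. *Olr1* was chosen by its measured fall after knockdown in these same libraries, so its values are given as a description without a test. The other 9 genes were named as members of the receptor family. These members and the lists below were chosen with earlier results of these data known. Their p-values and shares called may therefore not be independent of that choice. RNA had been sequenced from mouse pulmonary artery smooth muscle cells (mPASMCs), bought from a commercial supplier and used at early passage, which were transfected by lipofection with a negative control siRNA (si-NC, genotype label Control) or with an siRNA against the long non-coding RNA *Snhg18* (si-*Snhg18*, genotype label Snhg18 knockdown). There were 3 libraries in each group, numbered 1 to 3. Their labels give no oxygen level and no time after transfection, and nothing states that the libraries came from separate cultures, so p-values measure the spread between these libraries, which may be technical.

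Scavenger receptors are mostly cell surface proteins of unrelated structure that bind modified lipoproteins and many other ligands and carry them into the cell. LOX-1, the protein encoded by *Olr1*, is a C-type lectin-like receptor that takes up oxidized LDL and is known from endothelial cells, macrophages and smooth muscle cells of diseased vessels. In the vessel wall, uptake of modified LDL through such receptors turns macrophages and smooth muscle cells into foam cells, while other members of the family clear proteases, matrix fragments, ferritin or HDL cholesterol.

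*Olr1* (ENSMUSG00000030162) spans bases 129485244 to 129507165 of chromosome 6 (GRCm38, minus strand). In the GENCODE M21 annotation of that build, its transcript with the longest coding sequence has 8 exons, 3572 bases and an open reading frame of 363 codons. The RefSeq promoter table of GRCm38.p6, which covers 250 bases before to 50 bases after the annotated start, held entries for 6 of the 10 genes. The promoter of *Olr1* (chr6:129507116-129507415, minus strand) is shown because *Olr1* differed most between the groups, and that of *Lrp1* (chr10:127621099-127621398, minus strand) because *Lrp1* had the most reads and differed little. Both read 5′ to 3′ on the gene's strand, and capitals mark matches to the motifs named below.
Olr1: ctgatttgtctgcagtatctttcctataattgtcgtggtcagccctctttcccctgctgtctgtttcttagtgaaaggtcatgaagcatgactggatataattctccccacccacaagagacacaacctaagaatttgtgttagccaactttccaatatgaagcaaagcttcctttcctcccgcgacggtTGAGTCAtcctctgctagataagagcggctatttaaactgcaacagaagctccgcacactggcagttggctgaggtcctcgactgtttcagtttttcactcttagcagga
Lrp1: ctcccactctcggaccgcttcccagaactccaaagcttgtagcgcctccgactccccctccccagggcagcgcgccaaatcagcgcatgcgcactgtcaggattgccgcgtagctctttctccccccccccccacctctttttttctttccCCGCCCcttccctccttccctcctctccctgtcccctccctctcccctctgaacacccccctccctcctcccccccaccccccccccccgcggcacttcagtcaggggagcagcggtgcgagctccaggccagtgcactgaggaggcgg
The capitals in the *Olr1* promoter are a match to the AP-1 motif TGANTCA, whose first base lies 60 bases before the start, at 129507219 to 129507225. This motif was present in 7.81% of the 32851 promoters of the table, and in none of the other 5 promoters of these genes. The capitals in the *Lrp1* promoter are a match to the GC box GGGCGG on the opposite strand. A GC box was found in 35.7% of all promoters, in those of *Cd36*, *Scarb2*, *Lrp1* and *Scarf2*, and not in that of *Olr1*. The octamer ATTTGCAT (1.74% of all promoters) and TATAAA (13.6%) matched none of the 6 promoters, and a form of the NF-kB motif (20.7%) matched those of *Cd36* and *Scarb2*. Motifs were searched on both strands. The GC content was 46.0% for *Olr1* and 67.7% for *Lrp1*, against a median of 52.7% over all promoters. These letters describe the windows and do not show that a factor binds there.

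The libraries held between 18097718 and 25988746 counted reads, the smallest being si-*Snhg18* 3. The floor used here, 3 reads in a library, amounted to between 0.115 and 0.166 CPM (reads scaled to the library total), which covers counting error only. The targeted *Snhg18* was at 22.1 to 23.5 CPM in si-NC cells and at 9.96 to 11.1 CPM in si-*Snhg18* cells. A gene was called at an adjusted p under 0.05 in the quasi-likelihood test of edgeR, and 1069 of 14531 tested genes (7.36%) passed, 3.65% higher and 3.71% lower in si-*Snhg18* cells. The libraries numbered 2 stood apart from the others of both groups for several of the genes below. In the fit with a replicate block, 3954 genes (27.2%) passed, and without both libraries numbered 2, 4020 passed. Without si-NC 1, without si-NC 3 or without si-*Snhg18* 3, 0 genes passed in edgeR, with 2512, 2731 and 2464 genes at an unadjusted p under 0.05, so under each of these settings no gene or list below had a call. With these cells taken as a bulk sample, fewer cells of a type and less RNA per cell cannot be told apart.

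*Olr1* was at 57.2, 54.4 and 59.8 CPM in si-NC 1, 2 and 3 and at 18.1, 19.2 and 19.9 CPM in si-*Snhg18* 1, 2 and 3. Every si-*Snhg18* library lay below every si-NC library, as for 15.5% of all tested genes, and the values within a group were close to each other. The means were 57.1 ± 2.67 CPM (SD, n = 3) and 19.1 ± 0.914 CPM (SD, n = 3), so that 33.4% remained. These values rest on 1325, 1334 and 1412 reads in the si-NC libraries and on 457, 500 and 363 reads in the si-*Snhg18* libraries. The fitted log2 fold change was -1.58 with a standard error of 0.08, and 49 of the 14531 tested genes, *Olr1* among them, had a log2 fold change this low or lower. Within same-numbered pairs the difference in log2 CPM was -1.66, -1.50 and -1.58 for numbers 1, 2 and 3. It stayed between -1.62 and -1.55 as single libraries were left out, and it was -1.63 without both libraries numbered 2.

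**Figure D1:**
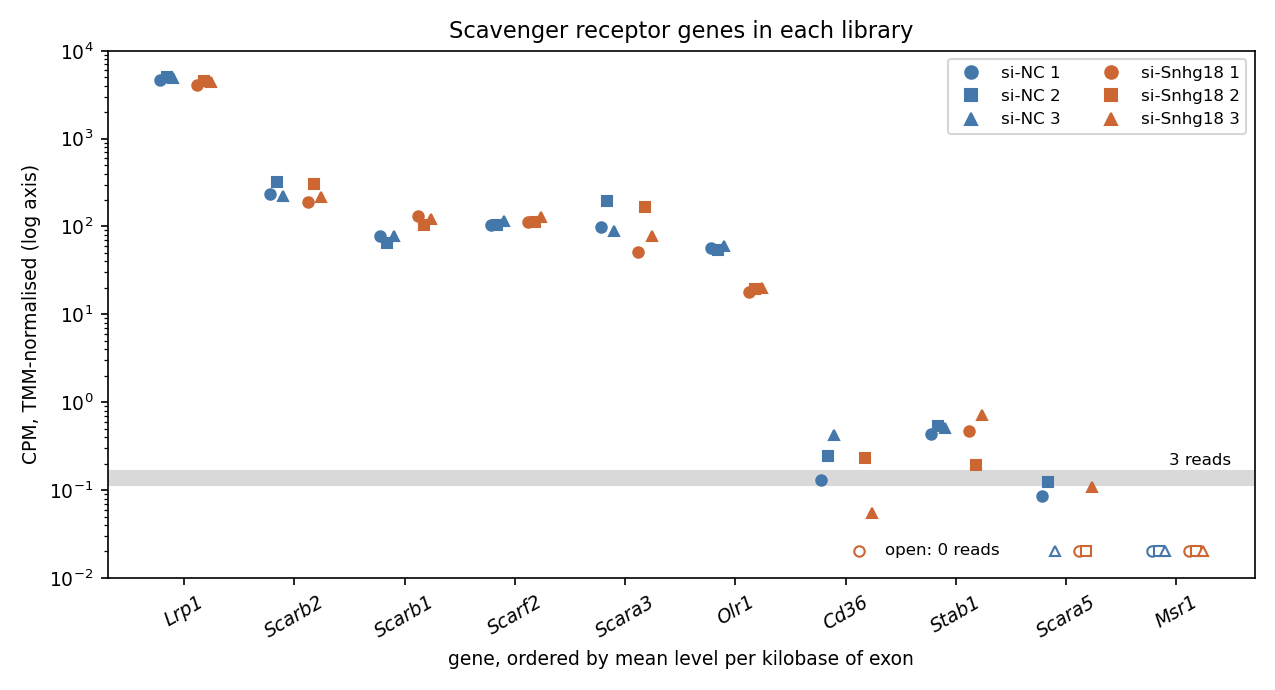
Normalised CPM (log axis) of the 10 scavenger receptor genes in the 3 si-NC (blue) and 3 si-Snhg18 (orange) libraries, with the grey band at 3 reads and open symbols for 0 reads. *Olr1* lies at 54.4 to 59.8 CPM in si-NC cells and 18.1 to 19.9 CPM in si-Snhg18 cells, while *Cd36*, *Stab1*, *Scara5* and *Msr1* lie below 1 CPM.

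*Scarb1* encodes SR-BI, the receptor that takes up cholesteryl esters from HDL (chromosome 5, 125277087 to 125341094), and it was the 1 member called among those tested besides *Olr1*. It was at 77.2, 65.0 and 77.6 CPM in si-NC 1, 2 and 3 and at 132.6, 105.2 and 120.3 CPM in si-*Snhg18* 1, 2 and 3. All si-*Snhg18* libraries were above all si-NC libraries, and the libraries numbered 2 were the lowest of each group. The means were 73.3 ± 7.17 and 119.4 ± 13.7 CPM (SD, n = 3 each), a 1.63-fold rise. On the log2 scale the change was 0.70 ± 0.11 (standard error), with an edgeR adjusted p of 0.0216 over all tested genes. The call was lost in 5 of the 6 fits that left out 1 library. The adjusted p was 0.112 without si-NC 1, 0.0773 without si-NC 2, 0.102 without si-NC 3, 0.0581 without si-*Snhg18* 1 and 0.118 without si-*Snhg18* 3, with log2 fold changes from 0.62 to 0.75, while the call held without si-*Snhg18* 2 (0.00721) and without both libraries numbered 2 (0.00107).

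Of the 6 members tested besides *Olr1*, *Scarb1* was thus the 1 that passed, against 7.36% of all tested genes. The groups did not overlap for *Scarb1* and *Lrp1* among these 6, against 30.9% of all tested genes. Both directions occurred, with *Scarb1* and *Scarf2* at positive and *Lrp1*, *Scarb2*, *Scara3* and *Stab1* at negative fitted values.

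*Lrp1* (chromosome 10, 127538161 to 127621148) encodes a large endocytic receptor for remnant lipoproteins and protease-inhibitor complexes that also restrains PDGF receptor signalling in smooth muscle. It was by far the most abundant member, with 4691, 5021 and 4885 CPM in the si-NC libraries and 4058, 4480.0 and 4424 CPM in the si-*Snhg18* libraries. The si-*Snhg18* libraries all lay below the si-NC libraries, by a small margin. The log2 fold change was -0.17 (95% interval -0.34 to -0.0047, edgeR adjusted p = 0.191). In the fit with a replicate block it was -0.17 with an adjusted p of 0.0407, and DESeq2 with the same block gave an adjusted p of 0.115.

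*Scarb2* (chromosome 5, 92441314 to 92506833) encodes LIMP-2, a lysosomal membrane protein that carries glucocerebrosidase to lysosomes. It was at 237.2, 321.0 and 223.2 CPM in si-NC 1, 2 and 3 and at 189.4, 304.5 and 214.9 CPM in si-*Snhg18* 1, 2 and 3. The libraries numbered 2 were the highest of both groups, and the groups overlapped. The log2 fold change was -0.14 (95% interval -0.65 to 0.37, edgeR adjusted p = 0.729), and with the block it was -0.15 (edgeR adjusted p = 0.151). Without si-NC 2 it was 0.036.

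*Scara3* (chromosome 14, 65919394 to 65953935) encodes a class A scavenger receptor protein known for its response to oxidative stress. Its values were 99.2, 194.8 and 88.9 CPM in si-NC 1, 2 and 3 and 51.9, 168.4 and 77.9 CPM in si-*Snhg18* 1, 2 and 3. The libraries numbered 2 again stood highest in both groups, and the spread between them and the others was larger than the difference between the groups. The log2 fold change was -0.36 (95% interval -1.53 to 0.81, edgeR adjusted p = 0.693). Within pairs the log2 CPM differed by -0.93, -0.21 and -0.19 for numbers 1, 2 and 3, lower in si-*Snhg18* cells each time. In the fit with a replicate block the log2 fold change was -0.44 and the adjusted p 0.0543, and DESeq2 with the same block gave an adjusted p of 0.00878. Without si-NC 2 the fitted value was 0.077, and without both libraries numbered 2 it was -0.54 (edgeR adjusted p = 0.054).

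*Scarf2* (chromosome 16, 17797282 to 17808293), which encodes a type F scavenger receptor with EGF-like repeats, differed little between the libraries. It was at 104.8, 104.7 and 114.2 CPM in the si-NC libraries and at 113.7, 113.8 and 128.1 CPM in the si-*Snhg18* libraries. The ranges overlapped between 113.7 and 114.2 CPM. The log2 fold change was 0.14 (95% interval -0.05 to 0.32, edgeR adjusted p = 0.333, 0.112 with the block).

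**Figure D2:**
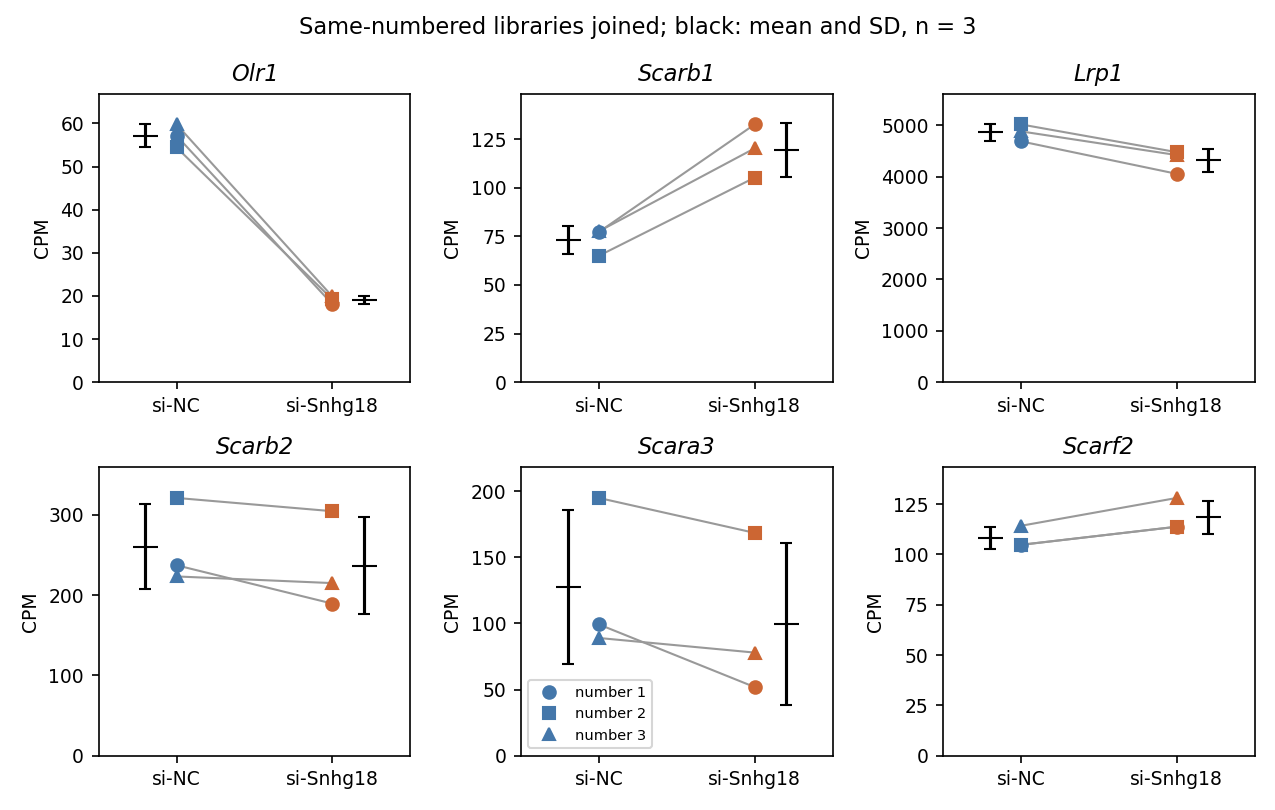
CPM of 6 members in si-NC and si-Snhg18 libraries, with lines joining libraries of the same number and black bars for the mean and SD (n = 3), all axes starting at 0. For *Scarb2* and *Scara3* the libraries numbered 2 (squares) lie above the others in both groups, at 321.0 and 304.5 CPM for *Scarb2* and 194.8 and 168.4 CPM for *Scara3*, whereas for *Olr1* the lines run close together.

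The remaining members were at or near the limit of the depth. *Stab1* (chromosome 14, 31139013 to 31168641) encodes stabilin-1, a clearance receptor of macrophages and sinusoidal endothelium, and had 10, 13 and 12 reads in the si-NC libraries and 12, 5 and 13 in the si-*Snhg18* libraries. It passed the filter on low counts with a log2 fold change of -0.13 (95% interval -1.33 to 1.08, edgeR adjusted p = 0.901). Its locus overlaps *Nt5dc2* on the opposite strand, which had 2223 to 3220 reads, and since the strand setting of the counting is not given, the few *Stab1* reads cannot be told apart from reads of that gene.

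*Cd36*, a receptor for oxidized LDL, long-chain fatty acids and thrombospondin, had 3, 6 and 10 reads in the si-NC libraries and 0, 6 and 1 in the si-*Snhg18* libraries. *Scara5*, a ferritin receptor, had between 0 and 3 reads in any library. *Msr1*, the class A receptor by which macrophages take up modified LDL, had 0 reads in all 6 libraries, which allows at most 0.115 to 0.166 CPM. These 3 genes did not pass the filter and were not tested, and a difference between the groups was not detectable at this depth.

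Levels of different genes were compared as RPKM, that is, CPM divided by the exon length in kilobases that the count table gives. For 9 of the 10 genes, all but *Cd36*, this length equals that of the GENCODE transcript with the longest coding sequence. For *Scarb1* the table uses 2521 bases, whereas all its annotated transcripts together cover 8500 bases, so its level per length depends on which transcripts are made. In si-NC cells *Lrp1* stood first at 326.8 ± 11.1 RPKM (SD, n = 3 here and below), followed by *Scarb2* at 55.4 ± 11.3, *Scara3* at 35.5 ± 16.2, *Scarf2* at 32.6 ± 1.65, *Scarb1* at 29.1 ± 2.84 and *Olr1* at 16.0 ± 0.748 RPKM. The range of *Scara3* overlapped those of *Scarb2*, *Scarf2* and *Scarb1*, whereas *Scarf2*, *Scarb1* and *Olr1* did not overlap one another. In si-*Snhg18* cells the order was *Lrp1* at 290.2 ± 15.4, *Scarb2* at 50.3 ± 12.9, *Scarb1* at 47.4 ± 5.44, *Scarf2* at 35.8 ± 2.50, *Scara3* at 27.6 ± 17.0 and *Olr1* at 5.33 ± 0.256 RPKM. There the ranges of *Scarb2* and *Scarb1* overlapped, and that of *Scara3* overlapped those of *Scarb2*, *Scarb1* and *Scarf2*. *Scarb1* was thus below *Scarf2* in each si-NC library and above it in each si-*Snhg18* library.

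Summed over the 10 genes, the level was 471.6 to 532.6 RPKM in si-NC libraries and 419.4 to 494.2 RPKM in si-*Snhg18* libraries, and these ranges overlapped. *Olr1* made up 3.24% ± 0.331 of this sum in si-NC cells and 1.17% ± 0.0718 in si-*Snhg18* cells (SD, n = 3 each). *Scarb1* made up 5.90% ± 0.923 and 10.5% ± 2.05, and *Lrp1* 66.0% ± 2.43 and 63.6% ± 2.39 (SD, n = 3 each). The ratio of *Scarb1* to *Olr1* RPKM was 1.91, 1.69 and 1.84 in si-NC 1, 2 and 3 and 10.4, 7.76 and 8.58 in si-*Snhg18* 1, 2 and 3.

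**Figure D3:**
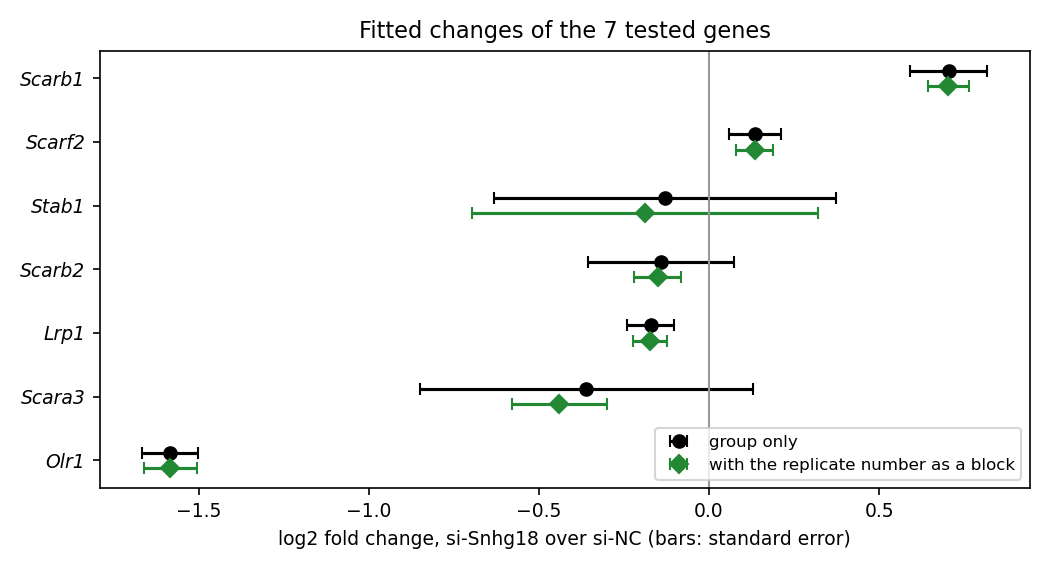
Fitted log2 fold changes (si-Snhg18 over si-NC) of the 7 tested genes with their standard errors, from the fit on groups only (black circles) and in a fit with the replicate block (green diamonds). The bars of *Scara3*, *Scarb2*, *Scarb1*, *Lrp1* and *Scarf2* shorten with the block. The fitted values of *Olr1* and *Scarb1* stay at -1.58 and 0.70.

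The genes around *Olr1* were examined because it lies in the natural killer gene complex, a cluster of C-type lectin genes. Of 31 genes whose start lies within 300 kb of *Olr1*, 18 had no read in any library and 4 were tested. *Gabarapl1*, which encodes an ATG8-family autophagy protein, starts 47.9 kb from the lower end of *Olr1* and was at 128.3 ± 11.4 CPM in si-NC and 114.7 ± 10.999 CPM after knockdown (SD, n = 3 each, log2 fold change -0.16, edgeR adjusted p = 0.371). The other tested neighbours, *2310001H17Rik*, *1700101I11Rik* and *Gm44243*, were at most 2.67 CPM on average in either group and none was called. On a list of 26 C-type lectin genes of this complex without *Olr1*, 12 had no read in any library and only *Clec2d* was tested. *Clec2d* was at 11.4, 22.4 and 10.9 CPM in the si-NC libraries and at 5.57, 20.1 and 7.66 CPM in the si-*Snhg18* libraries, highest in the libraries numbered 2 (log2 fold change -0.42, edgeR adjusted p = 0.671). Without both libraries numbered 2 this list had 1 call.

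Further scavenger and pattern recognition receptors were described from a list of 23 genes, of which 21 are in the count table and 11 were tested. With edgeR, 0 were called, 2 had an unadjusted p under 0.05, and the median log2 fold change was 0.11, against 0.01 over all tested genes. DESeq2 called 2 of them and limma-voom 1, and 5 passed under the replicate block (45.5% of those tested, against 27.2% of all genes), 3 higher and 2 lower. The highest levels per length were those of *Colec12*, a collectin receptor of the vessel wall, at 346.6 ± 14.3 CPM in si-NC and 374.9 ± 31.4 CPM after knockdown (SD, n = 3 each), and of *Tlr4*, the endotoxin receptor. *Tlr4* was at 55.6, 52.5 and 51.9 CPM in si-NC and 60.9, 64.2 and 67.4 CPM in si-*Snhg18* libraries (log2 fold change 0.27, edgeR adjusted p = 0.0806 without and 0.0324 with the block, and 0.0674 in DESeq2 with the block). *Marco*, *Cd163l1* and *Cd5l*, receptors or secreted proteins of macrophages and other leukocytes, had no read.

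Lipoprotein receptors of the *Lrp* kind and their uptake partners were represented by 25 genes, 22 of them tested. Called genes numbered 4 (18.2%, against 7.36% of all tested genes), 2 higher and 2 lower, with a median log2 fold change of 0.07 over the list. This list also had 0 calls without si-NC 2 and 0 without si-*Snhg18* 1. *Ldlrad3* rose from 7.06 ± 0.682 to 12.7 ± 0.535 CPM (SD, n = 3 per group, edgeR adjusted p = 0.0183), and *Lrp4*, the agrin receptor, rose with a log2 fold change of 0.76 (edgeR adjusted p = 0.0232). *Lrp2*, which encodes megalin, fell from 12.3 ± 1.23 to 5.12 ± 1.76 CPM (SD, n = 3 per group, edgeR adjusted p = 0.0374), and *Lrp12* fell with a log2 fold change of -0.56 (edgeR adjusted p = 0.0398, and 0.0526 without TMM factors and 0.0508 with no filter on low counts). Under the block 13 genes passed (59.1%, against 27.2% of all tested genes), 7 higher and 6 lower, among them *Lrp10* (log2 fold change -0.51, edgeR adjusted p = 0.0573 without and 0.00136 with the block).

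Among 21 genes of sterol efflux and of the handling of lipoprotein cholesterol inside the cell, 20 were tested and 2 were called (10%, near the 7.36% of all tested genes), both higher. *Npc1* and *Npc2* encode the proteins that move cholesterol out of lysosomes after lipoproteins are taken up. *Npc1* was at 103.4, 94.5 and 110.3 CPM in si-NC and 188.9, 162.3 and 169.6 CPM in si-*Snhg18* libraries, a log2 fold change of 0.76 (standard error 0.09, edgeR adjusted p = 0.0106). *Npc2* was at 392.4 ± 15.6 and 511.6 ± 39.0 CPM (SD, n = 3 each, log2 fold change 0.38, edgeR adjusted p = 0.0394), and *Npc2* was at an adjusted p of 0.0516 with no filter on low counts. For both genes the groups did not overlap, which held for 15.3% of all tested genes in this direction. With the block 12 genes passed (60.0%, against 27.2%), 8 higher and 4 lower, and the higher ones then included the lipid droplet gene *Plin2* (log2 fold change 0.37, edgeR adjusted p = 0.00374 with the block).

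Known ligands of scavenger receptors made up a list of 30 gene symbols, 29 of them in the count table. Of these, 26 were tested and 7 called (26.9%, against 7.36% of all tested genes), 4 higher and 3 lower. The median log2 fold change of the list was -0.02. The ferritin subunits *Fth1* and *Ftl1*, ligands of *Scara5*, rose by 0.56 and 0.51 on the log2 scale (edgeR adjusted p = 0.0106 and 0.0111). *Ftl1* was at 1961 ± 67.6 CPM in si-NC and 2800.0 ± 67.2 CPM after knockdown (SD, n = 3 each). *Psap*, the saposin precursor, rose by 0.37 (edgeR adjusted p = 0.0294), and *S100a8* rose by 2.02 (edgeR adjusted p = 0.0154), with only 8 to 10 reads in the si-NC and 31 to 38 in the si-*Snhg18* libraries. *Calr*, which encodes the *Lrp1* partner calreticulin, fell from 1561 ± 76.9 to 922.0 ± 40.4 CPM (SD, n = 3 each, log2 fold change -0.76, edgeR adjusted p = 0.00742). *Mmp13*, a collagenase cleared through *Lrp1*, had a log2 fold change of -1.38 (edgeR adjusted p = 0.0421), and *Hmgb1* one of -0.44 (edgeR adjusted p = 0.0325). The largest level per length in the list, that of *Hspa8*, rests on a length of 357 bases in the count table, against 2394 bases for its annotated transcript with the longest coding sequence, and is not interpreted. With the block 15 genes passed (57.7%, against 27.2%), 7 higher and 8 lower.

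Genes of LOX-1 signalling, LOX-1 shedding and the inflammatory targets of oxidized LDL formed a list of 35, of which 33 were tested and 4 called (12.1%, against 7.36% of all tested genes), 2 higher and 2 lower, with a median log2 fold change of -0.02. *Icam1*, the leukocyte adhesion molecule, was at 41.1, 41.1 and 36.6 CPM in si-NC and 28.1, 24.1 and 25.95 CPM in si-*Snhg18* libraries (log2 fold change -0.60, standard error 0.10, edgeR adjusted p = 0.0208). Its groups did not overlap, which held for 15.5% of all tested genes in this direction. *Cyba*, the p22phox subunit of NADPH oxidases, fell by 0.40 on the log2 scale (edgeR adjusted p = 0.0464, and 0.0723 without TMM factors and 0.0601 with no filter), and the oxidase gene *Nox4* rose by 0.45 (edgeR adjusted p = 0.0473, and 0.108 with no filter). *Adam17*, a membrane protease, rose by 0.42 (edgeR adjusted p = 0.0377, and 0.0502 with no filter). *Rhoa*, a GTPase downstream of LOX-1, had a log2 fold change of -0.12 (edgeR adjusted p = 0.325). The chemokine *Ccl2* varied widely, at 182.7 ± 64.5 CPM in si-NC and 365.7 ± 218.8 CPM after knockdown (SD, n = 3 each, edgeR adjusted p = 0.316 without and 0.0184 with the block, and 0.0629 in DESeq2 with the block). Under the block 17 of these genes passed (51.5%, against 27.2%), 7 higher and 10 lower.

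**Figure D4:**
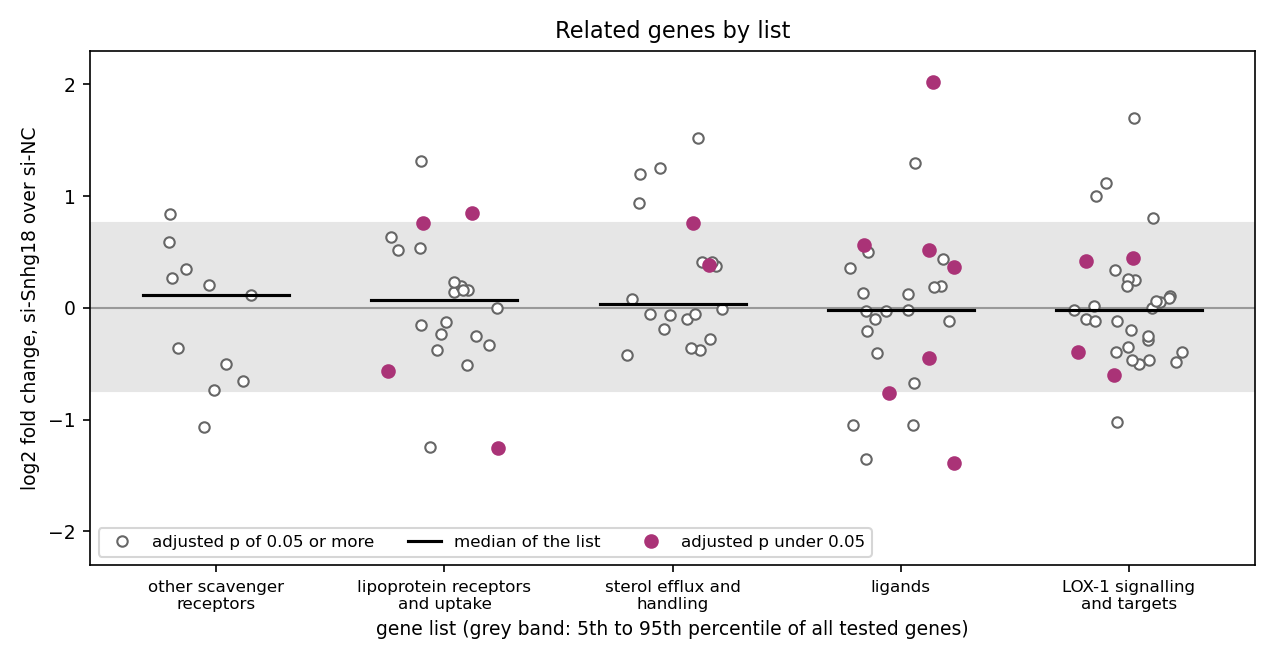
Log2 fold changes (si-Snhg18 over si-NC) of the tested genes of 5 lists, with filled points for an adjusted p under 0.05, black lines for list medians and a grey band from the 5th to the 95th percentile of all tested genes (-0.75 to 0.76). The list medians lie between -0.02 and 0.11, near that of all tested genes.

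Among 11848 tested genes whose log2 CPM averaged 1 or more, the levels most like those of *Olr1* over the 6 libraries were those of *Pafah1b2* (Pearson r = 0.9992), *Slc25a40* (0.9991), *Capza1* (0.9985), *Pgpep1* (0.9984) and *Il1rl1* (0.9981). Their log2 fold changes were -0.46, -0.71, -0.69, -1.14 and -1.21 in that order. The lower level in si-*Snhg18* cells follows from choosing genes by so high a correlation with *Olr1*. These correlations are a description over 6 libraries that share their groups, and 424 of the compared genes had an r above 0.95.

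Because scavenger receptors are also markers of macrophages and endothelium, markers of other cell types were examined. Over all tested genes, 7.36% were called without the block and 27.2% passed under it. Of 12 macrophage markers, *Adgre1*, *C1qa*, *C1qb* and *Tyrobp* had no read and 5 were tested, while *Ptprc* reached no more than 8 reads. The summed level of this list was 65.3 to 90.3 RPKM in si-NC and 43.5 to 65.8 RPKM in si-*Snhg18* libraries, and *Cd53* was the marker called (log2 fold change -1.10, edgeR adjusted p = 0.00727). The tested macrophage markers went both ways, 3 of 5 having positive fitted values with a list median of 0.35, and under the block *Cd14* passed as well, higher in si-*Snhg18* cells (log2 fold change 0.57, edgeR adjusted p = 0.00369). The 10 endothelial markers summed to 3.73 to 4.82 RPKM in si-NC and 4.27 to 4.28 RPKM in si-*Snhg18* libraries, with *Cldn5* at 0 and 0 of the 6 tested called in edgeR (1 had an unadjusted p under 0.05, and 1 passed under the block, lower). The 8 smooth muscle markers were all tested and summed to 908.4 to 979.1 RPKM in si-NC and 615.7 to 940.9 RPKM in si-*Snhg18* libraries, with *Tagln* called lower (log2 fold change -0.51, edgeR adjusted p = 0.0427). Under the block 4 of these 8 passed, all lower (*Tagln*, *Myh11*, *Cnn1* and *Des*), against 13.6% of all tested genes passing lower. The median of this list without the block was -0.35. The 6 fibroblast markers summed to 432.8 to 584.1 RPKM in si-NC and 274.7 to 447.6 RPKM in si-*Snhg18* libraries, and the 5 adipocyte markers to 1.33 to 2.55 and 0.599 to 1.66 RPKM. Without the block these lists gave 0 calls in edgeR, with 1 and 0 genes at an unadjusted p under 0.05. Under the block 3 of 6 fibroblast markers (*Pdgfra*, *Col1a1* and *Col3a1*) and the 1 tested adipocyte marker (*Plin4*) passed, all lower. The share of all tested genes passing lower was again 13.6%. The marker sums rest on exon lengths of the count table, which were not checked for the markers. Whether the differences in these markers have a part in the levels of *Olr1* and *Scarb1* was not tested.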

How the data were processed

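RNA sequencing of mPASMCs, with 3 si-NC and 3 si-*Snhg18* libraries prepared with the TruSeq Stranded mRNA kit, was analysed. As deposited, the values were raw read counts (whole numbers) for each gene, listed beside an exon length and a GRCm38.p6 position for each gene. The submitters' processing notes name HISAT2 and mm10, and the counting program, strand setting and read filters are not given in the sources used here. Groups and replicate numbers came from the sample titles.

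Differences were fitted with edgeR 4.0.16 under R 4.3.3: filterByExpr (minimum count 10), TMM factors, then the quasi-likelihood functions glmQLFit and glmQLFTest. P-values were adjusted by Benjamini-Hochberg over 14531 genes. CPM and RPKM were computed with TMM factors, and log2 CPM with a prior count of 2. Standard errors were derived from the fold change and its F statistic. Exact permutation of 3 libraries against 3 reaches a two-sided p of 0.1 at best, so single values got no such test. The members and lists were chosen with earlier results of these data known. Named genes were the members, *Snhg18*, up to 4 called genes per direction and the 2 highest levels per length of each list, tested genes within 300 kb of *Olr1*, and the 5 genes most correlated with it. A gene that this rule names is not reported here. Markers and further genes at 0 reads, and *Nt5dc2*, which overlaps *Stab1*, were named after their values were seen.

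Deviations from the group means correlated between same-numbered libraries (r = 0.41, 0.742 and 0.359 over the tested genes), although no shared culture is stated. Differently numbered libraries were not compared in this way, so whether the replicate numbers pair the libraries was not tested. Alternatives were DESeq2 1.42.0, limma-voom (limma 3.58.1), RLE factors, no TMM factors, other filters, the replicate block and leaving out each library. The test was also tried on simulated data.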

Additional observations from a re-analysis of the deposited data

How the results depend on the processing

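The fall of *Olr1* kept its direction and size under all alternatives tried. It ranged from -1.62 to -1.55 on the log2 scale with single libraries left out. It was -1.63 without both libraries numbered 2, a setting chosen after seeing the data. *Olr1* was chosen for its fall in these same libraries, so these fits describe it and are no independent support. The number of genes called over all genes was 2115 of 14530 tested with DESeq2 and 3156 of 14531 with DESeq2 and the replicate block. It was 3954 of 14531 (27.2%) with the replicate block in edgeR and 4020 of 14587 without both libraries numbered 2. With a 1.5-fold threshold as well it was 533, and it ranged from 0 to 3282 with single libraries left out. Of the 6 members tested besides *Olr1*, 2 passed with the replicate block (*Scarb1* and *Lrp1*). With DESeq2 and the block 2 passed (*Scarb1* and *Scara3*), and 0 to 1 with single libraries left out. The lists are given in the order other scavenger receptors, lipoprotein receptors, sterol handling, ligands and LOX-1 signalling. Their tested genes in the main fit numbered 11, 22, 20, 26 and 33. The counts called were 2, 7, 6, 11 and 9 with DESeq2 and 4, 11, 10, 12 and 14 with DESeq2 and the block. They were 5, 13, 12, 15 and 17 with the replicate block, and 4, 16, 11, 14 and 19 without both libraries numbered 2. These counts are to be read beside those over all genes under the same settings. With single libraries left out the list counts ranged from 0 to 1, 0 to 11, 0 to 9, 0 to 12 and 0 to 14. Without si-NC 2 the counts were 0, 0, 0, 1 and 0, and without si-*Snhg18* 1 they were 0, 0, 1, 3 and 1. The stricter filter and limma-voom gave 1 call each among other scavenger receptors, and no filter gave 1 in sterol handling and 1 in LOX-1 signalling. The C-type lectin list had 1 call with DESeq2 and the block and 1 without both libraries numbered 2.

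As a share of raw reads rather than per length, *Olr1* was 1.04% of the 10 genes in si-NC and 0.388% in si-*Snhg18* cells. Signs turned without si-NC 2 for *Scarb2* (0.036) and *Scara3* (0.077), and with single libraries left out the fitted values ranged from -0.37 to 0.036 and from -0.98 to 0.077. *Stab1* ranged from -0.55 to 0.25, *1700101I11Rik* from -0.36 to 0.51 and *Gm44243* from -0.52 to 0.63. Without both libraries numbered 2, *Stab1* was at 0.30 and *1700101I11Rik* at -0.047, and with limma-voom *Gm44243* was at -0.21. The replicate block changed no other member's call. Apart from what is printed here or beside the results, the cause of these changes was not tested. Depth limits *Cd36*, *Scara5*, *Msr1* and *Stab1*, which had at most 13 reads in a library.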
